A study of Homo sapiens with 18 samples.

Results

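CA9 encodes carbonic anhydrase 9, a cell-surface enzyme that turns carbon dioxide and water into bicarbonate and protons and is one of the most strongly induced genes in hypoxic tumour cells. It was chosen by its read counts, which were lower in ovarian cancer cells given IgA against TSPAN7 than in untreated cells of the same data, and 9 further genes that low oxygen is known to induce were placed beside it: ADM, NDRG1, ANKRD37, PDK1, EGLN3, BNIP3, SLC2A1, LDHA and PFKFB4. All 10, of 55765 gene symbols, were found in both count tables by symbol, and all 10 passed the filter on low counts in both. RNA was sequenced from OVCAR3, an established human cell line of high-grade serous ovarian carcinoma, in 18 libraries that formed 2 series of 9 with 3 groups of 3. In the first series adherent cells received natural human IgA of no stated specificity (libraries labelled IgA_Coated) or natural human IgG (IgG_Coated), each at 0.5 µg/ml for 24 h, or no antibody. In the second they received, at the same dose and for the same time, tumour-derived IgA against BDNF, a secreted neurotrophin (OVCAR3-BDNF), or against TSPAN7, a membrane protein of the tetraspanin family (OVCAR3-TSPAN7), or no antibody. All groups grew in medium with 2% serum and are 1 cell line, so the spread between libraries is not that between tumours, and nothing in the labels says that replicates were separate cultures. The supplementary descriptions of the experiments of both series give a shorter incubation. The untreated groups of the series are separate and each series was normalised on its own, so values were compared within a series only.

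Cells sense oxygen through the hypoxia-inducible factors (HIFs). Prolyl hydroxylases of the EGLN family mark the HIF alpha subunits, encoded by HIF1A and EPAS1, for destruction by the VHL ubiquitin ligase when oxygen is present, and the spared alpha subunits pair with ARNT and switch on target genes when it is not. The targets raise glucose uptake and glycolysis, divert pyruvate from the mitochondria, remove mitochondria, handle the acid that glycolysis makes and call for blood vessels. Oxygen and HIF protein were not measured in these libraries.

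HIF binds short DNA elements whose core reads ACGTG or GCGTG, so the 250 bases before the annotated start were searched for both on either strand. The 5 promoters below are those of CA9, of 3 genes whose RNA was higher with non-specific IgA (ADM, BNIP3 and LDHA) and of ANKRD37, whose RNA was not. They are RefSeq sequences on GRCh38.p14, read 5′ to 3′ on the gene's strand, from CA9 (chr9:35673678-35673927, plus strand), ADM (chr11:10304823-10305072, plus), BNIP3 (chr10:131981924-131982173, minus), LDHA (chr11:18394313-18394562, plus) and ANKRD37 (chr4:185396591-185396840, plus). Capitals mark the cores ACGTG and GCGTG, or, where the core lies on the other strand, CACGT and CACGC.
CA9: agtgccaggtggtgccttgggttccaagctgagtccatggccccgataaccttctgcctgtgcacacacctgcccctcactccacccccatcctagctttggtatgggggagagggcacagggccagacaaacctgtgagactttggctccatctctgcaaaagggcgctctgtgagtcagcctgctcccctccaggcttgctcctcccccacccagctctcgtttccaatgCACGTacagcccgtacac
ADM: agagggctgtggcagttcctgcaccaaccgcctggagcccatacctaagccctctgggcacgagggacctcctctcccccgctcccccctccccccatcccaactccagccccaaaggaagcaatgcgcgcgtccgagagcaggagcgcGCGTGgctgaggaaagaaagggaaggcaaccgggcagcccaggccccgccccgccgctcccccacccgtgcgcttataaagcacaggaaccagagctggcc
BNIP3: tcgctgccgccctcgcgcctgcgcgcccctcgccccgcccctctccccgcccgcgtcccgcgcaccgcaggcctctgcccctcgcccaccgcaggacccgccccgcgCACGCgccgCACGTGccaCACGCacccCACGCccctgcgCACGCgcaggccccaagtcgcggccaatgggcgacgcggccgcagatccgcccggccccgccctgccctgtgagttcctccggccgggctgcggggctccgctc
LDHA: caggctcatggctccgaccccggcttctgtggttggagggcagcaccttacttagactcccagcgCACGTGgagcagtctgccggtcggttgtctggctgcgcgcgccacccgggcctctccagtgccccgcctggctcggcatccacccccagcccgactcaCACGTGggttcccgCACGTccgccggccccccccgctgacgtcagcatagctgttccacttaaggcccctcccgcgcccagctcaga
ANKRD37: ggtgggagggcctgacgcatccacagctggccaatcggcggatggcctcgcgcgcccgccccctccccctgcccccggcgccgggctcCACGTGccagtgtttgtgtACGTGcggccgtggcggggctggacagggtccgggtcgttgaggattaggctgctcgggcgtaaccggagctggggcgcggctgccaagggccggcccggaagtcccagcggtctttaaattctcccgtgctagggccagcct
The CA9 promoter held 1 core, CACGT, whose first base lay 18 bases before the start. That of ADM held 1 GCGTG at -101. BNIP3 had CACGC at -143, -125, -116 and -104 and the palindrome CACGTG at -134, and LDHA had CACGTG at -185 and -87 and CACGT at -73. ANKRD37 had CACGTG at -162 and ACGTG at -143. A CACGTG counts on both strands. Among the others in the table, PFKFB4 held GCGTG at -166, and PDK1, EGLN3 and SLC2A1 held neither core in this window. Of 35116 RefSeq promoter windows of the same length, 18.5% held ACGTG, 32.2% GCGTG and 43.2% at least 1 of them, so that a match in a single promoter is common.

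Libraries of the first series held 27920733 to 42371474 counts, and those of the second series 39254350 to 47381836. Below, a normalised count is a read count rescaled to 1 common effective library size per series, and a gene was called higher or lower at an adjusted p under 0.05 in edgeR's quasi-likelihood test, two-sided, Benjamini-Hochberg over all genes tested. All 8 markers of serous carcinoma cells were present in each library. The summed leukocyte markers stayed at or below 2.25 CPM (counts per 1e+06), with CD3E at no more than 3 counts in any library. The summed endothelial markers CDH5 and VWF stayed at or below 1.94 CPM, and PECAM1, the other endothelial marker listed, was not found by symbol. The 4 fibroblast markers had a summed level of 62.9 to 110.3 CPM in libraries of the first series and of 67.4 to 91.1 CPM in those of the second, nearly all of it from the collagen genes COL1A1 and COL1A2, and their part in the results was not tested. Mitochondrial genes supplied 19.1% of the counts of IgA replicate 3 and 5.75% to 8.32% of those of the 8 libraries beside it. In bulk RNA, fewer expressing cells and less RNA per cell cannot be told apart.

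The first comparison asked what IgA, which crosses epithelial cells on the polymeric immunoglobulin receptor, changed in these cells that IgG did not. With non-specific IgA, ADM, BNIP3, SLC2A1, LDHA and NDRG1 were higher than with IgG, by 3.40-, 2.63-, 1.67-, 1.67- and 1.38-fold. None of the 10 was called lower. Against untreated cells the first 4 of these were again called, at 4.39-, 2.93-, 1.78- and 1.70-fold, and PDK1, PFKFB4 and ANKRD37 were called in neither comparison. Across all 18012 genes tested, 12.6% were called higher and 11.6% lower against IgG, and 12.9% and 12.1% against untreated cells. The members' counts were thus 5 higher and 0 lower of 10 against IgG, and 4 and 0 of 10 against untreated cells, with median log2 fold changes of 0.60 and 0.60 beside all-gene medians of -0.01 and -0.01. Every IgA library was above every IgG library for 6 of the 10 and above every untreated library for 5, and below them for 0, where over all genes the shares above and below were 19.7% and 20.6% against IgG and 19.8% and 20.1% against untreated cells. Both comparisons use the same IgA libraries. These differed from each other more than the replicates of any other group did, while the test shares its spread over all 9 libraries. The 10 genes were chosen with earlier results of these data known, so these counts are not independent of that choice. Without IgA replicate 3, the library rich in mitochondrial RNA, 5 members were called higher against IgG and 5 against untreated cells. The set changed: against IgG NDRG1 was no longer called and EGLN3 was, and against untreated cells EGLN3 was added.

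**Figure D1:**
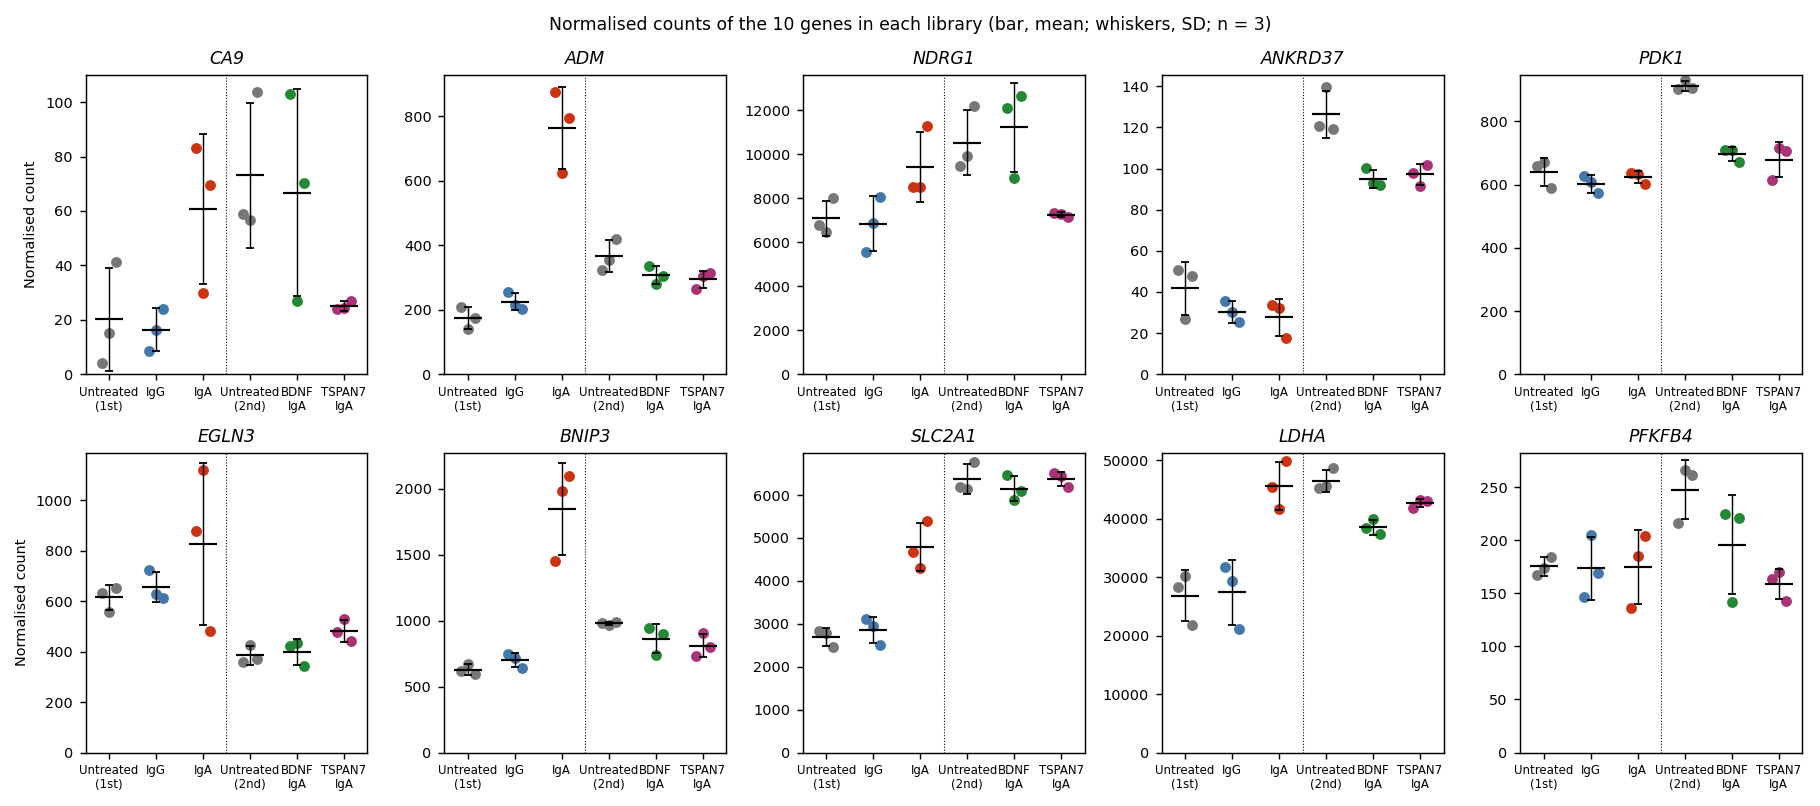
Normalised counts of the 10 genes (vertical axes, linear, starting at 0) in each of the 18 libraries, by group, with group means and SD. The dotted line separates the series, which were normalised apart and are not to be compared across it. IgA libraries stand above IgG and untreated libraries for ADM, BNIP3, SLC2A1 and LDHA, and TSPAN7 IgA libraries lie close together and low for CA9 and NDRG1.

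CA9 (chromosome 9, 35673925 to 35681156, GRCh37, overlapping ARHGEF39 on the opposite strand) had few reads. The raw counts were 74, 30 and 44 in the IgA libraries, 9, 18 and 22 with IgG and 4, 18 and 51 in untreated cells. The normalised counts were 82.97, 29.98 and 69.5 with IgA, 8.40, 16.4 and 24.2 with IgG and 4.15, 15.1 and 41.1 untreated. Each IgA library was above each IgG library, but IgA replicate 2 was below untreated replicate 3. Neither comparison called CA9: against IgG the log2 fold change was 1.90 (SE 0.68, edgeR adjusted p 0.0596) and against untreated cells 1.56 (SE 0.66, 0.103). The result lay near the threshold: against IgG it was called by DESeq2 (adjusted p 0.025), and by edgeR without the filter on low counts (0.00375), with at least 1 CPM in 3 libraries (0.0477), with the 6 libraries compared (0.0405), and without IgA replicate 2 (0.0327) or untreated replicate 1 (0.0374) or 3 (0.0418). Against untreated cells it was called without the filter (0.0201) and without untreated replicate 3 (log2 fold change 2.61, adjusted p 0.0349). Strand was not stated for the counting, so reads of ARHGEF39 cannot be told apart from those of CA9 where the genes overlap.

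Adrenomedullin, encoded by ADM (chromosome 11, 10326620 to 10328944), is a secreted peptide that widens blood vessels. It had 875, 625 and 795 normalised counts with IgA, 254, 216 and 203 with IgG and 208, 141 and 174 in untreated cells. The lowest IgA library was far above the highest of the other 6. ADM rose with IgA against both IgG (by 1.77 log2 units, SE 0.19, edgeR adjusted p 5.09e-05) and untreated cells (log2 fold change 2.13, SE 0.19, edgeR adjusted p 1.44e-05), the largest fitted change among the called members. BNIP3 (chromosome 10, 133781188 to 133795471), a mitochondrial outer membrane protein that promotes removal of mitochondria, had 1450, 1987 and 2101 with IgA, 745, 716 and 645 with IgG and 621, 674 and 593 untreated. Again the groups were far apart, and BNIP3 rose against IgG (by 1.39 log2 units, SE 0.14, edgeR adjusted p 3.86e-05) and untreated cells (log2 fold change 1.55, SE 0.14, edgeR adjusted p 1.65e-05).

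Among the genes of glucose handling, the transporter and the lactate-forming enzyme rose and the regulators did not pass the test. SLC2A1 (chromosome 1, 43391024 to 43424564) encodes the glucose transporter GLUT1. Its normalised counts were 4678, 4291 and 5399 with IgA, 3115, 2946 and 2515 with IgG and 2830, 2790 and 2464 untreated, with no overlap of the IgA libraries with the rest (log2 fold change 0.74 against IgG, SE 0.12, edgeR adjusted p 8.42e-04, and 0.83, SE 0.12, 3.69e-04 against untreated cells). LDHA (chromosome 11, 18416107 to 18429972), which makes the lactate dehydrogenase subunit that turns pyruvate into lactate, had 45422, 41592 and 49821 with IgA, 31723, 29253 and 21174 with IgG and 28297, 30183 and 21878 untreated. Every IgA library was above every other library (0.74 against IgG, SE 0.16, edgeR adjusted p 0.0051, and 0.77, SE 0.16, 0.00385 against untreated cells). PDK1 (chromosome 2, 173420101 to 173473397), a kinase that shuts pyruvate out of mitochondrial oxidation, had 638, 633 and 602 with IgA, 628, 608 and 572 with IgG and 659, 671 and 588 untreated, and the groups overlapped. PFKFB4 (chromosome 3, 48555117 to 48599448), which sets the level of an activator of glycolysis, had 136, 185 and 204, 147, 205 and 169 and 167, 174 and 184, also overlapping. Their log2 fold changes against IgG were 0.05 (SE 0.12) and 0.0065 (SE 0.21), which turned to -0.18 and -0.23 with scaling by library size alone.

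NDRG1 (chromosome 8, 134249418 to 134314265), a stress and differentiation gene that hypoxia induces in many cell types, had 8512, 8515 and 11279 normalised counts with IgA, 5556, 6880 and 8056 with IgG and 6769, 6476 and 8002 untreated. The IgA libraries were all above the rest, 2 of them by little. NDRG1 was called against IgG (by 0.47 log2 units, SE 0.15, edgeR adjusted p 0.0377), a call that was lost without IgA replicate 3, IgG replicate 1 or 2 or untreated replicate 1 or 2 (0.0546 to 0.153), with limma voom (0.0618), with the 6 libraries compared (0.073) and with scaling by library size alone (log2 fold change 0.22, adjusted p 0.282). Against untreated cells it was not called (log2 fold change 0.41, SE 0.15, edgeR adjusted p 0.0591), though it was with IgA replicate 2 (0.0471), IgG replicate 1 (0.0491) or IgG replicate 3 (0.0494) left out of the fit, with DESeq2 (0.0451) and without the filter (0.00683). EGLN3 (chromosome 14, 34393433 to 34931980), the oxygen-sensing prolyl hydroxylase that HIF itself induces, had 878, 1119 and 483 with IgA, 723, 629 and 614 with IgG and 633, 559 and 652 untreated. IgA replicate 3 lay below all 6 other libraries while IgA replicates 1 and 2 lay above them. EGLN3 was not called (0.34, SE 0.22, edgeR adjusted p 0.291 against IgG), but was without IgA replicate 3, both against IgG (0.61, 0.00542) and against untreated cells (0.70, 0.00212). ANKRD37 (chromosome 4, 186317175 to 186321782), which encodes a small ankyrin-repeat protein and overlaps UFSP2 on the opposite strand, had 33.6, 31.98 and 17.4 with IgA, 35.5, 30.05 and 25.3 with IgG and 50.9, 26.9 and 47.5 untreated. Its groups overlapped and it was not called (-0.11, SE 0.42 against IgG).

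IgG itself was set against untreated cells as the control for the presence of an antibody. None of the 10 was called, and for each of the 10 the IgG and untreated libraries overlapped. The fitted log2 fold changes ran from -0.46 (ANKRD37, SE 0.41) to 0.37 (ADM, SE 0.19), with CA9 at -0.34 (SE 0.69). Over all 18012 genes the groups were apart with IgG higher for 3.32% and lower for 3.43%. The background of calls was 0% in either direction by edgeR and 0 by DESeq2 or limma voom, with 89 genes, none of the 10 among them, at an unadjusted edgeR p under 0.05. That is fewer than a test at 0.05 passes where nothing differs. The spread was taken from all 9 libraries, the more variable IgA libraries included. With the 6 libraries compared 338 genes were under 0.05 by edgeR, and 402 by limma voom, again with 0 called. Small changes of any of the 10 may thus have been missed. With 16.3 ± 7.88 normalised counts with IgG and 20.1 ± 18.97 untreated (SD, n = 3), a small change of CA9 was not detectable.

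**Figure D2:**
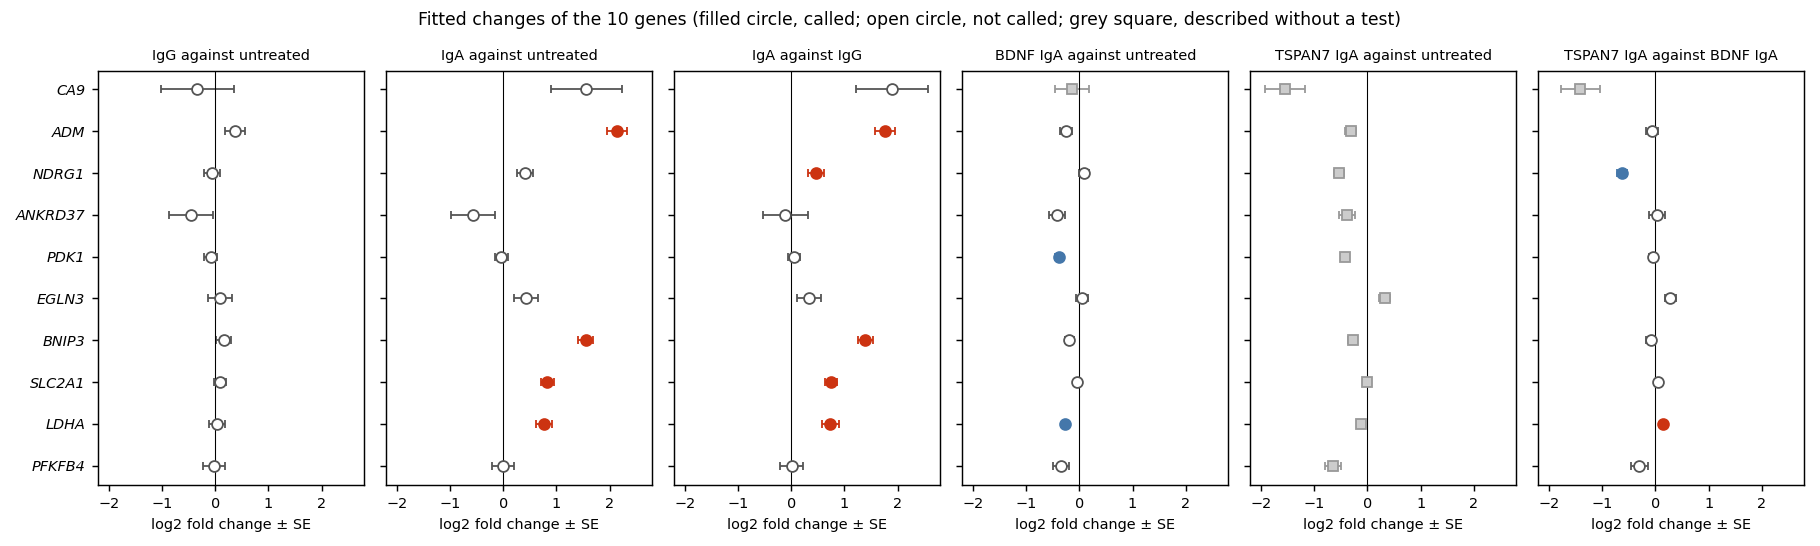
Fitted log2 fold change (horizontal axes, ± SE) of the 10 genes in 6 comparisons, each of 3 libraries against 3 with the spread taken from all 9 of the series. Filled circles were called (red higher, blue lower), open circles were not called, and grey squares are given as description only. Against IgG, 5 genes were called higher with non-specific IgA, and against BDNF IgA the TSPAN7 IgA libraries had NDRG1 lower and LDHA higher.

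The second series asked how cells responded to IgA against a surface or a secreted antigen. CA9 and NDRG1 were low in all 3 TSPAN7 IgA libraries, PDK1 and LDHA were below their untreated levels with BDNF IgA, and SLC2A1 stayed close to its untreated level with both antibodies. CA9 had 23.97, 24.2 and 27.1 normalised counts with TSPAN7 IgA, 58.8, 56.6 and 104 in untreated cells and 103, 26.97 and 70.3 with BDNF IgA, from raw counts of 24, 23 and 25, 58, 56 and 115 and 102, 27 and 74. The TSPAN7 IgA libraries were within 1.13-fold of each other and below every untreated library, but BDNF IgA replicate 2 was as low as they were. Since TSPAN7 IgA against untreated cells is the contrast that chose CA9, its values there are a description: 25.1 ± 1.72 against 73.1 ± 26.7 normalised counts (SD, n = 3) and a fitted log2 fold change of -1.55 (SE 0.37), which was -1.20 without untreated replicate 3. CA9 was also left without a test in the other comparisons of the series, where the log2 fold change was -0.14 (SE 0.32) for BDNF IgA against untreated cells and -1.41 (SE 0.37) for TSPAN7 IgA against BDNF IgA.

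The other 9 genes are likewise described without a test in TSPAN7 IgA against untreated cells. There the 3 TSPAN7 IgA libraries lay below all 3 untreated libraries for 8 of the 10 genes, CA9 included, and above them for 1, EGLN3. Over all 18732 genes the groups were apart in this way for 14% and 14.4%, and the median log2 fold change was -0.35 for the 10 genes and -0.00 for all genes. NDRG1 had a log2 fold change of -0.54 (SE 0.094), PFKFB4 of -0.64 (SE 0.15) and EGLN3 of 0.33 (SE 0.10). Nothing is read from these counts, as the genes were placed beside CA9 with this contrast known. The exception to both was SLC2A1, with 6503, 6437 and 6197 against 6190, 6139 and 6769 normalised counts (log2 fold change 0.00, SE 0.048).

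BDNF IgA against untreated cells was tested for the 9 genes other than CA9. PDK1 and LDHA fell and none rose, where 3.18% of all genes were called lower and 4.49% higher. The untreated libraries are those of the contrast that chose CA9 and were known when the genes were placed beside it, so these calls are not independent of that choice. PDK1 had 709, 710.2 and 672 normalised counts with BDNF IgA, 614, 716 and 707 with TSPAN7 IgA and 902, 931 and 906 untreated. Both antibody groups lay below every untreated library, and PDK1 fell with BDNF IgA, the untreated level being 1.31-fold that with the antibody (log2 fold change -0.39, SE 0.07, edgeR adjusted p 0.00129). With TSPAN7 IgA the fitted value was -0.43 (SE 0.071), without a test, and between the antibodies PDK1 was not called (-0.039, SE 0.072). LDHA had 38413, 39911 and 37299 with BDNF IgA, 41858, 43197 and 42932 with TSPAN7 IgA and 45268, 45551 and 48634 untreated, 3 ranges in that order without overlap. It fell with BDNF IgA (log2 fold change -0.27, SE 0.043, edgeR adjusted p 3.94e-04). BNIP3 (947, 740.1 and 903 with BDNF IgA, 729.99, 903 and 800.1 with TSPAN7 IgA, 983, 971 and 993 untreated) and ANKRD37 (100.03, 92.9 and 92.2, 97.9, 91.7 and 102 and 121, 139.6 and 119) also lay below the untreated libraries in both antibody groups without being called with BDNF IgA (-0.19, edgeR adjusted p 0.196, and -0.41, 0.099). Groups apart in this way, with BDNF IgA lower, were found for 12% of all genes, and for 4 of the 9, and with BDNF IgA higher for 12.8% of all genes and 0 of the 9.

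NDRG1 was the member with the largest tested difference between the antibodies. Its normalised counts were 7325, 7303 and 7129 with TSPAN7 IgA, 12109, 8913 and 12642 with BDNF IgA and 9474, 9930 and 12194 untreated. The TSPAN7 IgA libraries were nearly equal and below the other 6. NDRG1 fell with TSPAN7 IgA relative to BDNF IgA (log2 fold change -0.63, SE 0.094, edgeR adjusted p 2.80e-04), a comparison that shares the TSPAN7 IgA libraries with the contrast that chose CA9. The same gene did not differ detectably between BDNF IgA and untreated cells (0.091, SE 0.093, edgeR adjusted p 0.627), except that without BDNF IgA replicate 2 it was called higher (0.23, 0.0126). That library was the lowest of its group for CA9, NDRG1 and PFKFB4 alike, and the cause was not tested.

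LDHA was higher with TSPAN7 IgA than with BDNF IgA (log2 fold change 0.15, SE 0.043, edgeR adjusted p 0.0398), and that small difference was lost without BDNF IgA replicate 1 or 3, TSPAN7 IgA replicate 2 or 3 or untreated replicate 1 or 2 (0.0519 to 0.18), with library size alone (0.0614) and with 6 libraries (0.0661). These 2 calls, 1 lower and 1 higher of 9, compare with 4.5% and 3.42% of all genes, and the antibody groups were apart, TSPAN7 IgA lower or higher, for 1 and 2 of the 9 and for 12.1% and 11.5% of all genes. EGLN3 had 477, 528 and 443 with TSPAN7 IgA, 422, 435 and 341 with BDNF IgA and 358, 428 and 370.2 untreated. It was the member with higher values in every TSPAN7 IgA library than in the other groups, was not called against BDNF IgA (0.27, edgeR adjusted p 0.109), and was without BDNF IgA replicate 2 (0.34, 0.0268). PFKFB4 had 164, 169.7 and 143, 224, 142 and 220.5 and 216, 266 and 261 in the same order. It was not called between the antibodies (-0.30, SE 0.16) but was, as lower, without BDNF IgA replicate 2 (-0.48, 0.0123). ADM, which led the response to non-specific IgA, had 265, 306 and 313 with TSPAN7 IgA, 335, 281 and 304 with BDNF IgA and 323, 353 and 419.9 untreated. It was called in neither tested comparison (-0.25, edgeR adjusted p 0.175, for BDNF IgA against untreated cells). Whether non-specific IgA and the antibodies to BDNF or TSPAN7 differed in their responses was not tested.

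Levels were also set in order within a group, as mean normalised counts per kilobase of annotated exon, since longer transcripts give more reads. The length is that of all annotated exons of a gene together, not of the transcript in use, which was not determined. The order depends on it: PDK1 (14.845 kb) had 639 normalised counts in the untreated cells of the first series and ADM (2.325 kb) 174, yet PDK1 is placed below. In the untreated cells of the first series LDHA led with 4445, followed by NDRG1 with 590.1 and SLC2A1 with 407. BNIP3 (155), EGLN3 (83.5), ADM (74.97), PDK1 (43.1) and PFKFB4 (28.7) came next. ANKRD37 (18.5) and CA9 (12.6) were lowest, and their libraries overlapped, as did those of EGLN3 and ADM, whereas the other neighbours did not overlap. CA9 was a minor transcript in cells where LDHA, NDRG1 and SLC2A1 were abundant. With IgA the order of the top 3 was the same, at 7569, 786 and 724, SLC2A1 and NDRG1 now overlapping, with ADM at 329 above EGLN3 at 112.

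The machinery around these genes was followed in 4 lists that do not contain them: 14 genes of oxygen sensing, 18 of glycolysis, 28 other hypoxia-induced genes and 14 of pH regulation. The lists too were chosen with earlier results of these data known, so their counts in either series are not independent of that choice. For these genes, values in parentheses are the log2 fold change and the edgeR adjusted p, and values after a named library are the adjusted p with that library left out. SLC2A3 and CA4 in both series and CA14 in the second had too few counts to test. Against IgG, 12 of 17 tested glycolysis genes were called higher and 0 lower (median log2 fold change 0.43), and against untreated cells 11 and 0 (median 0.48), all with non-specific IgA and beside the shares of all genes given above. With library size alone the IgA libraries lay above every IgG library for 7 of the 17 and below for 1, where with the main scaling these counts were 13 and 0. PFKP, a subunit of the committed enzyme phosphofructokinase, rose by 1.07 (SE 0.14, edgeR adjusted p 1.83e-04) against IgG and 1.10 against untreated cells. PGK1, an ATP-making enzyme of the pathway, rose by 0.49 (SE 0.10, 0.00304) and 0.54. It was not called with scaling by library size alone (0.151 and 0.0669). The aldolase gene ALDOC rose by 0.97 (0.00392) and 1.02. The enolase gene ENO2 was called higher against IgG (0.94, 0.0252) but not without IgA replicate 3 or any IgG library (0.0601 to 0.0801), with library size alone (0.0576) or with 6 libraries (0.0525), and against untreated cells (0.98, 0.0197) but not without IgA replicate 3 or untreated replicate 1 or 3 (0.0526 to 0.0865).

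Of the other hypoxia-induced genes, 14 of 28 were called higher and 3 lower against IgG, and 13 and 2 against untreated cells, with medians of 0.43 and 0.48. STC1, a secreted glycoprotein, had 1030, 1017 and 2215 with IgA, 312, 322 and 440.3 with IgG and 399.7, 345 and 388 untreated, with the IgA libraries above all others (1.99, 2.76e-04, and 1.91, 3.26e-04). BHLHE40, a transcriptional repressor of the clock, rose by 1.95 (9.08e-05) and 1.93 (9.15e-05). VEGFA, the vessel growth factor, was called higher against IgG (0.63, 0.014) but not without IgG replicate 1 or 2 (0.0615 to 0.0638), and against untreated cells (0.59, 0.0187) but not without untreated replicate 1 or 2 (0.0832 to 0.0874). With library size alone VEGFA was called in neither (0.38, 0.08, and 0.36, 0.0934). Not all moved up. WSB1, part of a ubiquitin ligase, fell against IgG (-0.70, 0.00164) and untreated cells (-0.79, 7.15e-04). The lipid droplet gene HILPDA was called lower against IgG (-0.79, 0.00887) but not with limma voom (0.0535), and against untreated cells (-0.64, 0.024) but not without untreated replicate 2 or 3 (0.0537 to 0.113), with limma voom (0.108) or with 6 libraries (0.0594). The adenylate kinase gene AK4 was called lower against IgG (-0.47, 0.0312) but not without IgA replicate 1 or 3 or any IgG library (0.0587 to 0.0965) or with 6 libraries (0.0678).

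Of the oxygen sensing genes, 3 were called higher and 2 lower of 14 in each of the IgA comparisons (medians -0.041 and 0.017), beside 12.6% and 11.6% of all genes against IgG and 12.9% and 12.1% against untreated cells, so that the counts were near the background. EPAS1, which encodes HIF-2 alpha, had 4872, 5128 and 5459 normalised counts with IgA, 2097, 2137 and 2048 with IgG and 1965, 1984 and 2091 untreated. It rose in tight groups (log2 fold change 1.30, SE 0.091, edgeR adjusted p 1.83e-06 against IgG, and 1.36, 1.27e-06 against untreated cells). HIF1A, which encodes HIF-1 alpha, had 35097, 28204 and 50879, 22247, 21564 and 20212 and 22275, 23897 and 20845 in the same order, and rose by 0.83 (SE 0.17, 0.00371) and 0.77 (SE 0.17, 0.00569), with the highest value in IgA replicate 3. HIF1AN, the asparagine hydroxylase that restrains HIF, fell by 0.65 on the log2 scale against both (0.00105 and 8.82e-04). HIF3A was called lower (-1.03, 0.0195, and -1.07, 0.0159), except without IgG replicate 3 (0.0912) and without untreated replicate 3 (0.0806), respectively, and with limma voom in both (0.108 and 0.0829). The ubiquitin ligase subunits ELOC against IgG (0.36, 0.0299) and RBX1 against untreated cells (0.59, 0.0227) were called higher, and lost the call without IgA replicate 1, any IgG library or untreated replicate 1 (0.055 to 0.0979) and without IgA replicate 1 or any untreated library (0.0525 to 0.0902), respectively. With library size alone neither was called (ELOC 0.13, 0.548, and RBX1 0.39, 0.158), and ELOC was not with limma voom (0.0533) or 6 libraries (0.0513). ARNT (0.0069), EGLN1 (-0.15) and VHL (-0.20, SE 0.20) were not called against IgG. VHL was called lower without IgA replicate 3 (-0.54, 0.00771, and -0.53, 0.00897 against untreated cells), and EGLN1 was called lower against IgG without IgA replicate 2 (-0.35, 0.0264).

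Genes of acid handling were 4 higher and 2 lower of 13 in each of the same comparisons, the lower count near the same background. SLC16A3, which exports lactate, rose by 0.94 (1.35e-04) against IgG and 0.79 (4.19e-04) against untreated cells, and BSG, the chaperone that brings it to the membrane, by 0.69 (0.00196) and 0.72 (0.00143). CA12, the other tumour-associated membrane carbonic anhydrase, had 1094, 1206 and 2050 normalised counts with IgA, 878, 895 and 900.3 with IgG and 894, 799.6 and 819 untreated. It was called higher against IgG (0.70, 0.0172), though not without any IgG library (0.0533 to 0.0582) or with library size alone (0.43, 0.0652), and against untreated cells (0.79, 0.00917). The anion exchanger SLC4A2 fell by 0.86 and 0.87 on the log2 scale (0.00182 and 0.00161), and the inactive carbonic anhydrase relative CA11 was called lower (-0.77, 0.0197, and -0.85, 0.0121) except without IgA replicate 1 or IgG replicate 3 (0.0572 to 0.102) and without untreated replicate 3 (0.0661), respectively, and with limma voom in both (0.129 and 0.0724). Over the 4 lists, 33 genes were higher and 7 lower of 72 against IgG, and 31 and 6 against untreated cells. Scaling by library size alone, which moved the all-gene medians from -0.01 to -0.25 and from -0.01 to -0.22, left 17 higher and 8 lower against IgG and 19 and 7 against untreated cells. Over all 18012 genes it called 873 higher and 3631 lower against IgG, where the main scaling called 2265 and 2095. Against untreated cells it called 1001 and 3296 of all genes, where the main scaling called 2316 and 2187. The lower counts dropped to 4 against IgG without IgG replicate 3 and to 3 against untreated cells without untreated replicate 3. IgG against untreated cells called 0 of the 72, at an edgeR unadjusted p under 0.05 likewise 0, and 0 with DESeq2 or limma voom. As for the members, small changes may have been missed in this comparison.

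**Figure D3:**
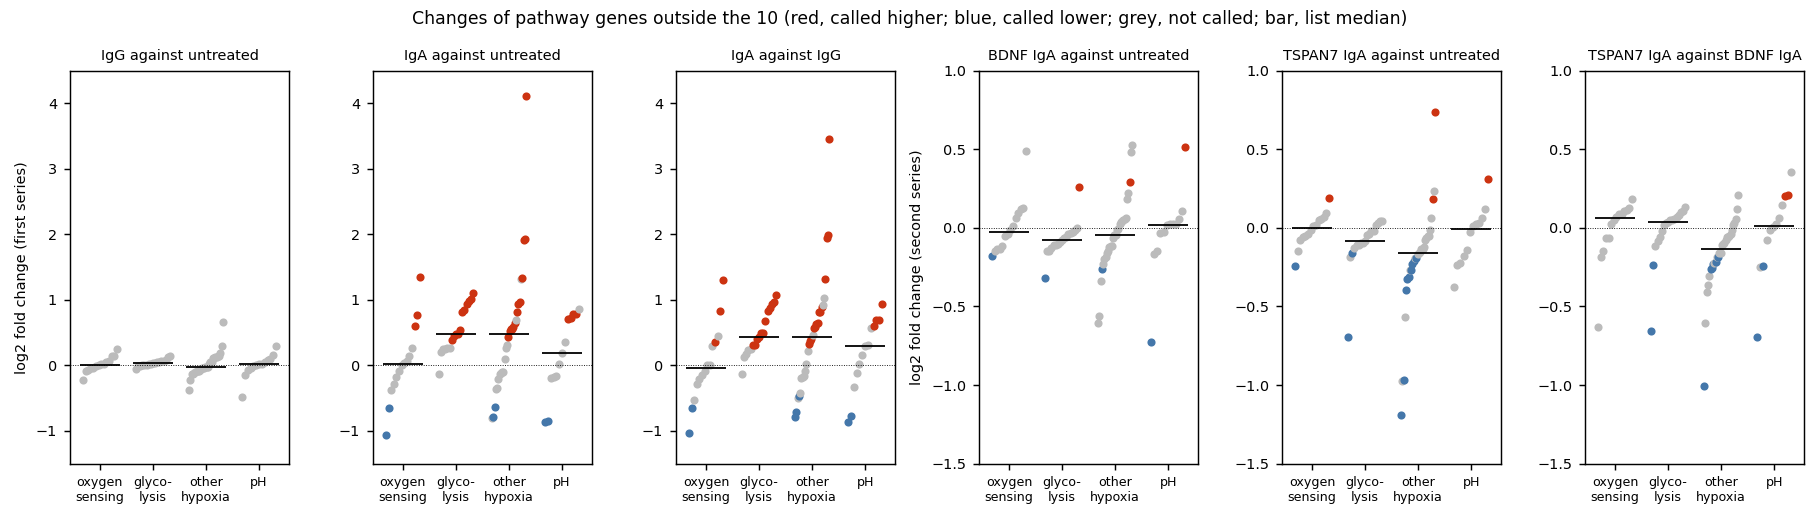
Log2 fold changes (vertical axes, different in the first and last 3 panels) of the tested genes of the 4 pathway lists, each point a gene, with the list's median as a bar. Red points were called higher and blue points lower. With non-specific IgA, 12 of 17 glycolysis genes were called higher than with IgG, and with IgG against untreated cells 0 of the 72 were called. The panel of TSPAN7 IgA against untreated cells is the contrast that chose CA9, and nothing is read from it.

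In the second series, TSPAN7 IgA against untreated cells had 2 of 28 other hypoxia-induced genes called higher and 9 lower (median -0.16), where 4.46% and 4.08% of all genes were called. These lists too were chosen with results of this contrast known, so nothing is read from their counts in it. The calls and adjusted p-values of single genes in it, here and in the next paragraph, are descriptions and not independent of that choice. STC1 had 1035, 1038 and 1088 normalised counts with TSPAN7 IgA, 2353, 2018 and 2835 untreated and 2275, 1539 and 2539 with BDNF IgA. It was lower in each TSPAN7 IgA library than in any other, and it fell against untreated cells (log2 fold change -1.19, SE 0.13, edgeR adjusted p 1.99e-06) and against BDNF IgA (-1.01, SE 0.13, 6.42e-05), whereas with non-specific IgA it had risen against the untreated cells of its own series. ANGPTL4, a secreted lipase inhibitor, was called lower (-0.97, 0.0145) except without TSPAN7 IgA replicate 2 or untreated replicate 1 or 3 (0.0619 to 0.109), and TMEM45A, a membrane protein gene, was called lower (-0.39, 0.0403) except without BDNF IgA replicate 1, TSPAN7 IgA replicate 2 or 3 or any untreated library (0.0507 to 0.176). ERO1A, which helps proteins form disulphide bonds, was called higher (0.18, 0.0239) except without any TSPAN7 IgA library or untreated replicate 1 or 2 (0.0536 to 0.158). VEGFA was not called (-0.19, 0.0515). It was called lower without BDNF IgA replicate 1 (0.0426), 2 (0.0042) or 3 (0.0355), libraries that enter this comparison only through the shared filter, scaling and spread. It was also called lower under each alternative with all its libraries other than that without mitochondrial genes (0.00213 to 0.0498).

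Of the glycolysis genes, 0 were called higher and 2 lower of 17 with TSPAN7 IgA against untreated cells (median -0.086): ALDOC (-0.69, 0.00677), though not without TSPAN7 IgA replicate 2 (0.0564), and ALDOA (-0.16, 0.0236), though not without TSPAN7 IgA replicate 2 or 3 or untreated replicate 1 or 2 (0.0581 to 0.16). PGK1 was at -0.021 (SE 0.045) and not called. In oxygen sensing HIF1AN fell (-0.24, 0.00184) and HIF1A was called higher (0.19, 0.012) except without TSPAN7 IgA replicate 2 or 3 or untreated replicate 2 (0.0577 to 0.0925), and EPAS1 (0.018), ARNT (0.058), VHL (-0.051) and EGLN1 (-0.079) were not called. In pH regulation CA2, a cytosolic carbonic anhydrase, rose (0.31, SE 0.061, 0.00215). CA12 was not called (-0.22, 0.0715), but was as lower without BDNF IgA replicate 2 (0.00824) or 3 (0.0258) or untreated replicate 2 (0.0233), with DESeq2 (0.0488), without the filter (9.53e-04) and with 6 libraries (0.00578). Over the 4 lists, 4 genes were higher and 12 lower of 71. The first count was 2 without TSPAN7 IgA replicate 2 or 3 or untreated replicate 2, and the second was 5 without TSPAN7 IgA replicate 2, 7 without untreated replicate 3 and 18 without BDNF IgA replicate 2.

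BDNF IgA against untreated cells gave 3 called higher and 4 lower of 71, where 4.49% and 3.18% of all genes were called. The untreated libraries are shared with the contrast that chose CA9, so these calls are not independent of that choice. DDIT4, a stress-induced brake on mTOR, fell (-0.26, SE 0.052, 0.00273) and the lipoprotein receptor gene VLDLR rose (0.29, SE 0.058, 0.00293). The others were called less firmly. PFKFB3, the glycolytic relative of PFKFB4, was lower (-0.32, 0.00659) except without untreated replicate 2 (0.0556), and the phosphofructokinase gene PFKM was higher (0.26, 0.0265) except without BDNF IgA replicate 1 or 3 or untreated replicate 2 or 3 (0.0908 to 0.12). HIF1AN was lower (-0.18, 0.0187) except without BDNF IgA replicate 3 or untreated replicate 2 or 3 (0.0664 to 0.111), the bicarbonate cotransporter gene SLC4A4 lower (-0.73, 0.0334) except without any BDNF IgA library or untreated replicate 1 or 3 (0.0534 to 0.156) and with limma voom (0.0577), and CA11 higher (0.51, 0.0147) except without BDNF IgA replicate 3 or untreated replicate 1 (0.0864 to 0.122). HIF1A (0.063), EPAS1 (-0.051), ARNT (0.12), VHL (0.10), VEGFA (-0.01), PGK1 (-0.068) and CA12 (0.022) were not called. EGLN1 was not called (-0.13, 0.138) but was as lower without BDNF IgA replicate 2 (-0.17, 0.0332). The count of higher genes was 7 without BDNF IgA replicate 2 and 1 without BDNF IgA replicate 3, and that of lower genes was 2 without BDNF IgA replicate 3 or untreated replicate 2 or 3.

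Set directly against BDNF IgA, TSPAN7 IgA gave 2 higher and 10 lower of 71, where 3.42% and 4.5% of all genes were called. The TSPAN7 IgA libraries are shared with the contrast that chose CA9, so these calls are not independent of that choice. STC1, given above, had the largest change. CA11 fell (-0.69, SE 0.13, 0.00208). ALDOC was called lower (-0.66, 0.0121) except without BDNF IgA replicate 1 or 3 or TSPAN7 IgA replicate 2 or 3 (0.0514 to 0.102), and PFKM (-0.24, 0.0426) except without BDNF IgA replicate 1 or 3, TSPAN7 IgA replicate 2 or 3 or untreated replicate 1 or 2 (0.0558 to 0.215), with limma voom (0.0555) and with 6 libraries (0.0679). MXI1, a MYC antagonist, was lower (-0.26, 0.0101) except without BDNF IgA replicate 3 (0.0968). BNIP3L, the relative of BNIP3 in mitochondrial removal, was lower (-0.26, 0.0168) except without BDNF IgA replicate 1 or 3 or TSPAN7 IgA replicate 1 or 2 (0.0627 to 0.116), and CA12 (-0.24, 0.0484) except without BDNF IgA replicate 1 or 3, any TSPAN7 IgA library or untreated replicate 1 (0.0713 to 0.315) and with limma voom (0.0646). CA2 was called higher (0.21, 0.04) except without BDNF IgA replicate 3, any TSPAN7 IgA library or untreated replicate 1 (0.0591 to 0.262), with library size alone (0.0553) and with 6 libraries (0.0651). VEGFA (-0.18, 0.0683), HIF1A (0.13, 0.101) and VHL (-0.15, 0.15) were not called, and each was without BDNF IgA replicate 2 (5.16e-04, 0.0268 and 0.00951), HIF1A also without TSPAN7 IgA replicate 1 (0.0174) and without the filter (0.0497), and VEGFA also without the filter (0.00433) and with library size alone (0.0434). EPAS1, ARNT, EGLN1 and PGK1 were not called either. The lower count rested on single libraries: 17 without BDNF IgA replicate 2, 6 without TSPAN7 IgA replicate 1, 5 without TSPAN7 IgA replicate 3, 4 without TSPAN7 IgA replicate 2, 3 without BDNF IgA replicate 1 and 2 without BDNF IgA replicate 3. The higher count was 5 without BDNF IgA replicate 2, 1 without BDNF IgA replicate 1, TSPAN7 IgA replicate 1 or 3 or untreated replicate 1, and 0 without BDNF IgA replicate 3 or TSPAN7 IgA replicate 2.

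CA9 varied between libraries of the same group, so the genes that varied with it are given as a description, by Pearson's r of log2 normalised counts over the 9 libraries of a series, which share their groups and depth. In the second series the 5 genes most like CA9, of 14082 with a mean of at least 50 normalised counts, were AAMDC (r = 0.979), BNIP3L (0.974), VEGFA (0.972), APOBEC3C (0.970) and SKAP2 (0.964). BNIP3L and VEGFA are themselves induced by hypoxia. The libraries of the contrast that chose CA9 are among these 9, and the members and lists were chosen with it known. Nothing is therefore read from hypoxia genes following CA9 here. Of the members, NDRG1 followed CA9 most closely (r = 0.93, rank 31, and 0.91 on deviations from the group means). It was followed by PFKFB4 (0.86), BNIP3 (0.78) and ADM (0.75), while EGLN3 ran opposite (-0.72) and LDHA did not follow it (0.07). Without the 2 libraries farthest from the CA9 median, r was 0.89 for NDRG1 and -0.53 for EGLN3. BDNF IgA replicate 2, low in CA9 within a group otherwise high, was also low in NDRG1 and PFKFB4.

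**Figure D4:**
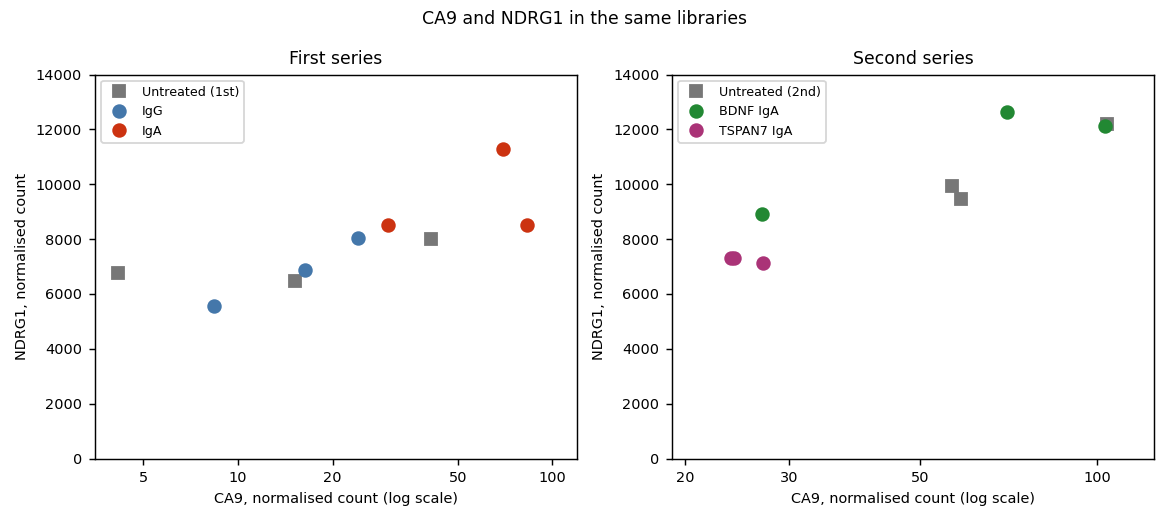
CA9 (horizontal axis, log scale) against NDRG1 (vertical axis, from 0) in normalised counts, each point 1 library, by series and group. In the second series r was 0.93 and the 3 TSPAN7 IgA libraries lie together at the lower left, with BDNF IgA replicate 2 the nearest other library.

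In the first series the 5 genes most like CA9, of 13515, were the non-coding RP11-200A1.1 (r = 0.973), the histone demethylase gene KDM6B (0.939), CREBZF (0.929), MVB12A (0.927) and TTC9C (0.926). None of these 5 is in the lists of hypoxia genes used here. NDRG1 was again the closest member (r = 0.80, rank 247, with 0.60 on deviations from the group means and 0.96 without the 2 farthest libraries). ADM (0.66), BNIP3 (0.63) and SLC2A1 (0.60) followed CA9 over all 9 libraries, but on deviations from the group means their r was -0.18, -0.39 and -0.35. With as few as 4 reads for CA9 in a library, these values carry much counting error.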

How the data were processed

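RNA was prepared with a kit for degraded samples and sequenced as paired-end reads of 75 bases. Adaptors were trimmed by the authors (cutadapt), STAR was run against GRCh37, and reads with a unique alignment were summed per gene. The deposited values are raw counts, with no normalisation. The methods name featureCounts for counting, the submitters' processing notes list HTSeq 0.6.1, and neither states strand. The authors tested with DESeq2, and columns of their own comparisons were not used. The second table repeated 2055 rows exactly, which were removed (1.99% to 2.46% of a library's counts). No 2 replicates of one group agreed within counting error. Chi-square per degree of freedom, which grows as replicates differ, was 67.0 to 232 for IgA pairs. It was 6.60 to 25.0 for IgG and untreated pairs of that series and 3.91 to 12.2 in the second series. The main fit shares its spread over all 9 libraries, so it can understate the error of the IgA group. Against IgG, all-gene calls were 1599 higher and 1326 lower with 6 libraries, and 1816 and 1404 with limma voom.

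Groups came from sample titles. Each series was fitted on its own with all 9 libraries in edgeR 4.0.16 (R 4.3.3, TMM, filterByExpr, quasi-likelihood F test, two-sided). 18012 and 18732 genes were tested, with common dispersions of 0.0307 and 0.00303, so that the second series was the more precise. P-values were adjusted by Benjamini-Hochberg over all genes of a comparison and measure the spread between these libraries, which may be technical. The SE is the absolute log2 fold change over the square root of F. Alternatives were DESeq2 1.42.0, limma 3.58.1 voom with quality weights per group, RLE scaling, library size alone, other filters, leaving out mitochondrial genes, a fit of 6 libraries, a replicate block and leaving out each library. Scripts were tested on simulated data.

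The members, the lists and the rules were chosen with earlier results of these data known. Beside the members and 8 named pathway genes (HIF1A, EPAS1, ARNT, VHL, EGLN1, VEGFA, PGK1 and CA12), up to 3 called genes per list, comparison and direction with the largest change were named if 1 group averaged at least 50 normalised counts, and so were the 5 genes most like CA9 per series. Some genes that the rule names are not reported here, though the counts of their lists include them. Positions are from GENCODE on GRCh37. Promoters are from RefSeq on GRCh38.p14, whose table matched 9 of the 10 members.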

Additional observations from a re-analysis of the deposited data

How the results depend on the processing

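Calls of ADM, BNIP3, SLC2A1 and LDHA with non-specific IgA, of PDK1 and LDHA with BDNF IgA and of NDRG1 between the antigen-specific antibodies held under each alternative run, and no called gene changed sign. The alternatives use the same libraries. Those of the second series are shared with the contrast that chose CA9, so holding there does not make these calls independent of that choice. With library size alone, pathway genes called higher were 17 for IgA against IgG, 19 for IgA against untreated and 5 for BDNF IgA against untreated, and with limma voom those called lower were 4 for IgA against IgG and 3 for IgA against untreated. Over all genes, library size alone called 873, 1001 and 1000 higher in the same order. Limma voom called 1404 and 1446 of all genes lower. Without the filter, 6 pathway genes were higher for BDNF IgA against untreated. Between TSPAN7 and BDNF IgA, library size alone and the fit of 6 libraries each gave 0 members and 1 pathway gene higher. Leaving out 1 library at a time, members called higher ranged from 4 to 6 for IgA against IgG, 4 to 5 for IgA against untreated, 0 to 1 for BDNF IgA against untreated and 0 to 2 for TSPAN7 IgA against BDNF IgA, where 1 to 2 were lower. Pathway genes called higher and lower then ranged from 24 to 33 and 4 to 10 for IgA against IgG, 23 to 33 and 3 to 8 for IgA against untreated, 1 to 7 and 2 to 6 for BDNF IgA against untreated, 2 to 5 and 5 to 18 for TSPAN7 IgA against untreated, and 0 to 5 and 2 to 17 for TSPAN7 IgA against BDNF IgA. The cause was not tested.

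Values near 0 that were not called changed sign. For IgA against IgG these were PDK1 (log2 fold change -0.18 with library size alone), PFKFB4 (-0.015 with limma voom, -0.23 with library size alone, -0.0072 without the filter) and ARNT (-0.0090, -0.24 and -0.0066 with the same, and -0.00082 with the replicate block). For IgA against untreated ARNT was -0.19 with library size alone, and EGLN1 was -0.0074 with DESeq2, -0.0043 with limma voom and with RLE scaling, -0.19 with library size alone, -0.011 without the filter, -0.0026 with at least 1 CPM in 3 libraries, -0.0029 with 6 libraries and -0.013 with the replicate block. With library size alone PFKFB4 was 0.013 for IgG against untreated and VEGFA 0.0062 for BDNF IgA against untreated. Leaving out 1 library gave ranges for IgA against IgG of -0.27 to 0.11 (ANKRD37), -0.11 to 0.16 (PFKFB4) and -0.11 to 0.093 (ARNT), and for IgA against untreated of -0.13 to 0.14 (PFKFB4), -0.081 to 0.12 (ARNT) and -0.21 to 0.11 (EGLN1). For IgG against untreated they were -0.79 to 0.71 (CA9), -0.19 to 0.077 (NDRG1), -0.10 to 0.19 (LDHA), -0.15 to 0.095 (PFKFB4), -0.00068 to 0.065 (ARNT), -0.10 to 0.088 (VHL) and -0.20 to 0.12 (VEGFA). For BDNF IgA against untreated they were -0.0052 to 0.23 (NDRG1), -0.017 to 0.15 (EGLN3), -0.072 to 0.065 (VEGFA) and -0.068 to 0.11 (CA12). TSPAN7 IgA gave -0.020 to 0.053 (EPAS1) and -0.046 to 0.014 (PGK1) against untreated, and -0.12 to 0.014 (ADM), -0.0029 to 0.071 (ANKRD37) and -0.078 to 0.032 (PDK1) against BDNF IgA.

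Correlations of same-numbered deviations were -0.0686 to 0.247 (first series) and -0.0168 to 0.0887 (second series). For libraries of different number they were -0.21 to 0.143 and -0.0769 to 0.0533, respectively. The value of 0.247 was that of IgG and untreated replicates 3. IgG replicates 1 and 2 gave 0.056 and 0.0625 with their untreated counterparts, but IgG replicate 1 gave 0.143 with untreated replicate 2. Whether libraries of the same number were handled together was not tested. With the number as a replicate block, 6 members were higher for IgA against IgG and 5 for IgA against untreated, the added calls being CA9 (adjusted p 0.0497) and NDRG1 (0.0137), and CA12 was called lower for TSPAN7 IgA against untreated (0.0108). Of the 5 genes most like CA9 by Pearson's r, 2 (first series) and 1 (second series) were among the 5 highest by Spearman's rho. CA9, at 4 to 115 reads a library, was limited by depth.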

Other observations

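Among the carbonic anhydrases and their relatives CA9 was far from the most abundant. In the untreated cells of the first series the mean level per kilobase of exon, in normalised counts, was 2242 for the cytosolic CA2, 305 for CA11, 119.7 for CA12, 58.1 for CA13 and 12.6 for CA9. With non-specific IgA these were 2545, 169.8, 207, 51.4 and 38.1. In the untreated cells of the second series they were 1255, 186, 547, 59.8 and 45.7. In both untreated groups HIF1A, at 4337 and 5762, was above EPAS1, at 276 and 433, on the same scale. RNA levels do not give the level of HIF protein, which oxygen sets mainly through degradation.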
